A study of Xenopus tropicalis with 31 samples.

Results

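The broad H3K27me3 domains described here are long ectoderm H3K27me3 regions of *Xenopus tropicalis* early gastrulae that overlapped a long endoderm region. Members were chosen on the H3K27me3 lists alone: an ectoderm region of 20 kb or more was kept when it overlapped an endoderm region of 20 kb or more. This gave 1177 domains of 29268 ectoderm regions (4.02%), and 56.8% of the 2072 ectoderm regions that passed the width limit. An overlap of 1 bp was enough, and 1019 domains remained when the regions had to share 50% of each. The mark itself, its width and its presence in both tissues are therefore descriptions and not findings.

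H3K27me3 is laid down by Polycomb repressive complex 2 and is known for covering silent developmental genes, among them the Hox clusters. Ep300 (P300 in the labels) is a histone acetyltransferase recruited by DNA-bound factors, and H3K27ac, which it deposits, marks active enhancers and promoters. The same lysine cannot carry both marks at once. Foxi2 and Sox3 are maternal transcription factors of the animal hemisphere, the region that becomes ectoderm.

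In FS morphants, *foxi2* and *sox3* were targeted together with injected morpholinos, and all other groups are wild-type embryos. Ep300 was profiled at stage 10.5 in FS morphant and wild-type ectoderm and endoderm (second experiment), and, in a first experiment, in the same wild-type tissues. H3K27ac and H3K27me3 were profiled in dissected wild-type ectoderm (animal) and endoderm (vegetal) of stage 10.5, and Foxi2 and Sox3 in whole wild-type embryos of stages 8, 9 and 10.5. No control-morpholino list was analysed here, so injection and knockdown cannot be told apart. The labels place 31 samples in 19 groups, input DNA included, and 1 list per group was used here (16 lists). Of the groups, 12 have 2 samples, and 7 have 1, among them H3K27ac and the Ep300 groups of the first experiment. Read depth is unknown and no test could use the spread between embryos. All 95% intervals below cover counting error only, and they treat neighbouring peaks as independent. The extraction protocol in the labels names an antibody against VegT, an endodermal factor, for every sample, and the titles were followed here.

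The domains covered 45.4 Mb, 26.5% of all ectoderm H3K27me3 bases. On the 10 chromosomes, which hold 1176 of them, they took up 3.13% of 1449 Mb. Their median width was 31072 bp (20008 to 299414 bp), against 1116 bp for all ectoderm regions, and 34 were wider than 100 kb. Endoderm H3K27me3 lay on 87.9% of the domain bases, and the median domain was covered by it over 99.1% of its length. Width is in part a product of stitching, because peaks within 12 kb were joined: the median domain was stitched from 6 peaks (1 to 50), and 13 domains were a single peak. Just inside the limit lay domains of 20008, 20024 and 20034 bp, and just outside it regions of 19995, 19969 and 19948 bp. Every chromosome held between 0.729 (chromosome 2) and 0.978 (chromosome 8) domains per Mb.

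Genes were assigned by their midpoint, since the gene table used here gives no strand and so no start site. Of 21749 protein-coding genes, 4.30% (935 genes) had their midpoint in a broad domain, spread over 555 domains. The other 622 domains held no midpoint, and 302 of these overlapped part of a gene. The lists named below were chosen with earlier results known, and being in a domain is a description. Hox genes, which set position along the body axis, stood out most. Of 36 Hox cluster genes 33 lay in 6 domains. Among 188 genes of developmental transcription factor families, 46 lay in a domain (24.5%, Wilson interval 18.9 to 31.1), in 41 domains. Only 6 of 107 signalling genes did (5.61%, 2.60 to 11.7), and 3 of 84 genes matched by a ribosomal protein pattern (3.57%, 1.22 to 9.98). Those 3 were *rpl14*, *rps10* and *rps6ka2*, and the last encodes a kinase and not a ribosomal protein. Of the gene lists named in the study, 4 of 6 endoderm genes were inside (*gata4*, *gsc*, *hhex*, *otx2*). For its ectoderm genes the count was 2 of 13 (15.4%, 4.33 to 42.2). *foxc2* and *lhx1* were the 2 members inside among 15 mesoderm and organizer genes found in the table. Domains were accordingly sorted into 6 Hox domains, 43 regulator domains (any other listed transcription factor or germ layer gene), 506 domains with other genes and 621 with no gene midpoint. The last are called domains with no gene below, although many overlap part of a gene, among them *tbx4*, *tbx5* and *pax5*. The Hox domains had a median of 3.5 stitched peaks, the regulator domains 4, those with other genes 6 and those with no gene 5. Of these 49 Hox and regulator domains, 45 lay above the ROSE cutoff for the strongest ranked H3K27me3 regions, a line crossed by 164 of all 1177 domains.

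Binding was found in many of these domains, and counts are over the 1176 on chromosomes. In the first experiment, 313 domains (26.6%, 24.2 to 29.2) held the summit of an ectoderm Ep300 peak, against 3.99% of all ectoderm H3K27me3 regions, most of which are far narrower. Endoderm Ep300 summits lay in 454 domains (38.6%, 35.9 to 41.4), against 6.92% of all regions. In the second experiment 216 domains held a wild-type ectoderm summit (18.4%, background 3.08%) and 376 a wild-type endoderm summit (32.0%, background 6.63%). Stage 8 Sox3 summits lay in 398 domains (33.8%, background 11.0%) and stage 8 Foxi2 summits in 429 (36.5%, background 7.82%). A wider region has more room for a peak, so density per Mb was used from here on. A further 895 ectoderm regions of 20 kb or more had no endoderm counterpart of that width. The ratio of density in domains to density in these was 1.28 (1.10 to 1.49) for ectoderm Ep300 of the first experiment. For its endoderm Ep300 it was 3.11 (2.75 to 3.52). Wild-type Ep300 of the second experiment gave 0.853 (0.721 to 1.01) in ectoderm and 1.34 (1.16 to 1.54) in endoderm. Stage 8 Sox3 gave 1.31 (1.13 to 1.52) and stage 8 Foxi2 1.13 (1.01 to 1.26).

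Ep300 was denser in the domains than in genome free of H3K27me3, in both tissues and both experiments. In the first experiment, 586 ectoderm summits gave 12.9 per Mb in domains, 8.14 per Mb in other H3K27me3 regions and 3.12 per Mb in unmarked genome. The ratio of domains to unmarked genome was 4.14 (3.79 to 4.52). Endoderm Ep300 had 1723 summits at 38.0 per Mb in domains, 23.2 per Mb in other H3K27me3 regions and 4.82 per Mb in unmarked genome, a ratio of 7.89 (7.47 to 8.32). The second experiment gave lower values. Its wild-type ectoderm list had 7.81 summits per Mb in domains, 6.36 in other H3K27me3 regions and 3.33 in unmarked genome (ratio of domains to unmarked genome 2.35, 2.10 to 2.62). Its wild-type endoderm list had 14.8, 21.8 and 5.80 per Mb (ratio 2.55, 2.36 to 2.77). Against other H3K27me3 regions the direction turned in endoderm: the density ratio was 1.64 (1.55 to 1.74) in the first experiment and 0.680 (0.625 to 0.738) in the second. Whether broad domains hold more or less endoderm Ep300 than other marked regions is therefore not settled by these lists.

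**Figure D1:**
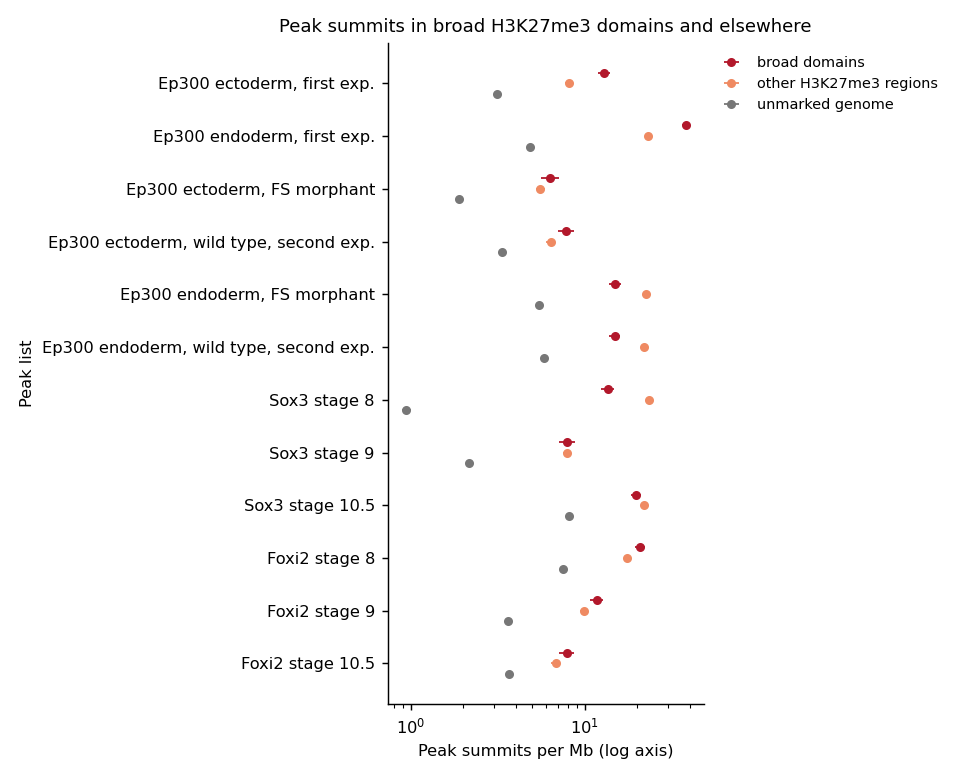
Peak summits per Mb (log axis) for the 12 peak lists in broad domains (red), in other H3K27me3 regions (orange) and in genome with no H3K27me3 region (grey), with exact Poisson 95% intervals, many smaller than the points. All 12 lists were denser in broad domains than in unmarked genome, and stage 8 Sox3 was sparsest in unmarked genome at 0.945 per Mb.

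Much of the difference between the experiments sat in the widest domains. The 20 widest held 600 of the endoderm summits of the first experiment (34.6% of the summits in all 1177 domains) and 31 of the second wild-type list (4.61%). For ectoderm the counts were 124 and 19. The widest domain of all, chr9:55521586-55820999 (X. tropicalis v10.0), had no gene midpoint, with *pofut2* as its nearest gene at 30919 bp. It held 5 ectoderm and 87 endoderm summits in the first experiment and 0 and 0 in the second, and no Foxi2 or Sox3 summit at any stage. The domain of *notum*, which encodes a Wnt-inactivating deacylase, held the most ectoderm summits: 26 ectoderm and 73 endoderm in the first experiment (chr10:26363640-26550029), and 0 and 0 in the second. A domain of 3 uncharacterised genes at chr5:163821751-164033531 (*LOC116411056* and 2 others) followed with 14 ectoderm and 86 endoderm summits, and again 0 and 0. Endoderm summits of the first experiment inside domains also had a lower median fold enrichment than those outside, 2.06 against 3.95, whereas in the second experiment the medians were 9.34 and 9.13. Of first-experiment endoderm peaks in domains, 27.5% were found again in the second, against 66.9% outside (difference −39.4 points, −41.7 to −37.1). For ectoderm it was 45.9% against 68.9% (−23.0, −27.2 to −18.8). Second-experiment wild-type peaks were found in the first more often inside domains, 67.0% against 59.1% in endoderm and 74.9% against 68.4% in ectoderm. Without the 20 widest domains, a step chosen after the data were seen, the first-experiment endoderm ratio was 5.57 over unmarked genome and 1.03 (0.963 to 1.10) over other H3K27me3 regions.

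Fewer domains held Ep300 in ectoderm than in endoderm. The difference was −12.0 percentage points in the first experiment (−15.7 to −8.21) and −13.6 in the second (−17.0 to −10.1). These intervals treat the 2 shares as independent, although the same domains were counted in both tissues. In the first experiment 229 domains held Ep300 in both tissues, 84 in ectoderm only and 225 in endoderm only. In wild type of the second the counts were 151, 65 and 225. The ectoderm lists were also shorter, with 5840 ectoderm and 11690 endoderm peaks in the first experiment, and 5552 and 11597 in the second. With both lists of the first experiment at the same length by −log10 p, the difference was 2.13 points in favour of ectoderm (−1.40 to 5.64). For the second experiment it was −1.87 points (−5.06 to 1.32), and both intervals included 0. Recurrence between the experiments was then counted. Ectoderm Ep300 was present in both experiments in 181 domains (15.4%), against 2.43% of all ectoderm H3K27me3 regions. For endoderm Ep300 this held in 286 domains (24.3%, background 4.30%), and for both tissues in 114 (9.69%, background 1.26%). The domains are wider than most regions, and the part of width in these gaps was not tested. In 39 domains (3.32%, background 0.804%) there was ectoderm Ep300 in both experiments and endoderm Ep300 in neither, those of *sox2* (a factor of neural progenitors) and *zic4* among them. The converse pattern, endoderm in both experiments and ectoderm in neither, was found in 121 domains (10.3%, background 2.55%), with *hhex*, *gsc*, *cdx2*, *lhx1*, *foxc2*, *tbx2*, *six3*, *six6* and the *hoxb* cluster among them. No Ep300 summit from any of the 4 wild-type lists lay in 553 domains (47.0%), against 88.9% of all regions, including those of *en2*, *sox1*, *irx4*, *hand2*, *pou4f1* and *prdm13*.

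Stage 8 binding was present in the domains before gastrulation. Foxi2 at stage 8 had 937 summits in domains, 20.7 per Mb, against 17.4 per Mb in other H3K27me3 regions and 7.48 per Mb in unmarked genome (ratio to unmarked genome 2.77, 2.58 to 2.96). Its count in domains was 529 at stage 9 (in 290 domains, 24.7%, background 4.77%) and 356 at stage 10.5 (in 228, 19.4%, background 3.11%), from lists that also became shorter (13158, 6668 and 6039 peaks). Stage 8 Sox3 had 612 summits in domains, 13.5 per Mb, against 23.4 per Mb in other H3K27me3 regions and 0.945 per Mb in unmarked genome. The ratio of domains to unmarked genome was 14.3 (12.9 to 15.8), and to other H3K27me3 regions 0.577 (0.529 to 0.629). Of all stage 8 Sox3 summits, 80.0% lay in an H3K27me3 region of either tissue, against 30.1% of stage 8 Foxi2 summits, 39.3% of stage 9 Sox3 summits and 31.9% of stage 10.5 Sox3 summits. Sox3 had 357 summits in 242 domains at stage 9 (20.6%, background 4.10%) and 891 in 454 domains at stage 10.5 (38.6%, background 9.46%). Inside domains, 27.3% of stage 8 Sox3 peaks overlapped an endoderm Ep300 peak of wild type in the second experiment (23.9 to 31.0) and 7.68% an ectoderm peak (5.82 to 10.1). Outside domains the shares were 23.9% for endoderm (difference 3.37 points, −0.207 to 7.21) and 4.64% for ectoderm (difference 3.04, 1.09 to 5.48). Whether the stage 8 Sox3 list holds sites of another factor was not tested, so its values stand apart from those of the later stages.

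**Figure D2:**
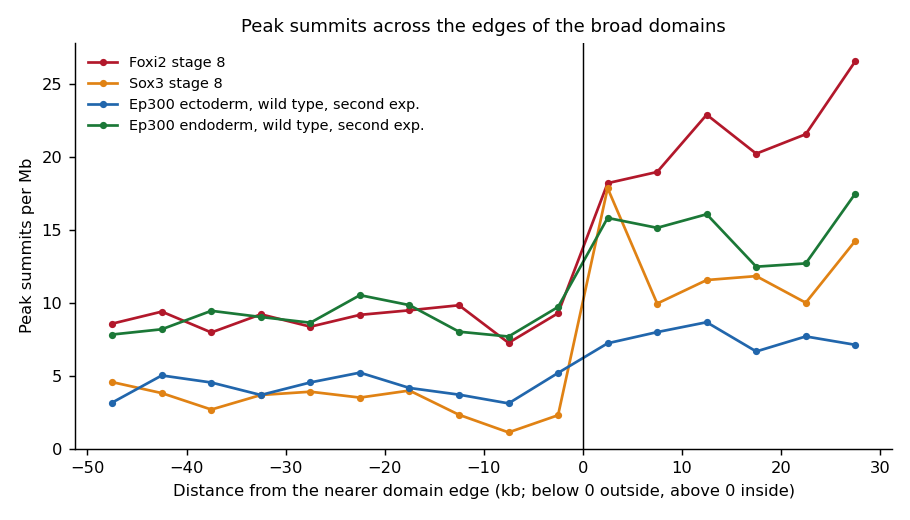
Summits per Mb in 5 kb steps of distance from the nearer domain edge (below 0 outside, above 0 inside), over all domains on the 10 chromosomes. Each of the 4 lists was denser in the first 5 kb inside the edge than in the last 5 kb outside it, with stage 8 Sox3 at 17.9 and 2.30 per Mb. Distances up to 30 kb inside are drawn.

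Density was higher just inside the domain edges than just outside them. In the 5 kb just inside the edges, stage 8 Sox3 had 17.9 summits per Mb, against 2.30 per Mb in the 5 kb just outside. Foxi2 of stage 8 had 18.2 against 9.29, wild-type endoderm Ep300 of the second experiment 15.8 against 9.71, and wild-type ectoderm Ep300 7.23 against 5.20. Farther in the lists kept no single direction. Sox3 stood at 9.95 per Mb at 5 to 10 kb from an edge, 11.6 at 10 to 15 kb and 14.2 at 25 to 30 kb, and at 22.3 (12 summits) at 40 to 45 kb, where few domains are wide enough to contribute. Foxi2 stood at 19.0, 22.9, 26.5 and 35.3 per Mb over the same steps. Edges were drawn by the H3K27me3 peak calls, so position relative to them carries the precision of those calls. Because peaks within 12 kb were joined, the 12 kb outside an edge hold no ectoderm H3K27me3 peak by construction. Stage 8 Sox3, most of which lay in H3K27me3 regions, stood at 1.12 per Mb at 5 to 10 kb outside. At 10 to 15 kb it was 2.33 and at 15 to 20 kb 3.99. The part of this rule in the step at the edge was not tested.

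Early Foxi2 sites in domains were followed to later stages. Of stage 8 Foxi2 peaks in domains, 44.7% (41.6 to 47.9) overlapped a stage 9 peak and 26.6% (23.8 to 29.5) a stage 10.5 peak. Outside domains 41.8% and 26.5% did, and both intervals of the difference included 0. Sox3 peaks of stage 8 persisted to stage 10.5 in 32.2% of cases inside domains and 29.6% outside (difference 2.63 points, −1.16 to 6.63). Stage 8 sites of the other factor coincided more often inside: 15.2% of Foxi2 peaks in domains overlapped a stage 8 Sox3 peak, against 8.31% outside (difference 6.85, 4.64 to 9.33). In the other direction, 23.0% of Sox3 peaks in domains overlapped a stage 8 Foxi2 peak, against 19.4% outside (difference 3.61, 0.264 to 7.26). Both factors were denser in domains than in unmarked genome, and the part of density in these gaps was not tested.

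The Hox clusters held early Foxi2 binding with little acetylation. They were not alone, since 18 of the 43 regulator domains touched no H3K27ac in either tissue. Stage 8 Foxi2 summits in those 18 ranged from 0 (*irx4*) to 6 (*foxd2*, 33898 bp wide). The 6 Hox domains together held 48 stage 8 Foxi2 summits, or 89.0 per Mb (exact Poisson interval 65.6 to 118). At stage 9 they held 19 and at stage 10.5 they held 2. The *hoxa* domain, chr6:42130123-42247868, was 117746 bp wide and held 19, 6 and 1 Foxi2 summits at the 3 stages. That of *evx2* and *hoxd*, chr9:64940403-65107420, held 12, 8 and 1. *hoxc5* to *hoxc12* lay in chr2:146051741-146157813 with 8, 1 and 0. The *hoxc13* domain held 5, 1 and 0 Foxi2 summits, the *hoxb* domain 3, 3 and 0, and the *hoxc4* domain 1, 0 and 0. All 6 domains thus had Foxi2 at stage 8, and 2 had it at stage 10.5. Only 2 of the 48 stage 8 peaks overlapped a stage 10.5 Foxi2 peak (4.17%, 1.15 to 14.0). In regulator domains 39 of 117 did (33.3%), a difference of −29.2 points (−38.6 to −16.6). None of the 48 overlapped a wild-type ectoderm Ep300 peak of the second experiment, which allows a share of up to 7.41%, whereas 158 of 772 stage 8 Foxi2 peaks (20.5%) did in domains with other genes or none. H3K27ac covered 0.620% of Hox domain bases in ectoderm and 0.534% in endoderm. Ep300 had 4 ectoderm and 5 endoderm summits there in the first experiment. In wild type of the second it had 3 and 6, or 5.56 and 11.1 per Mb, against 5.03 and 11.5 per Mb in domains with no gene.

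**Figure D3:**
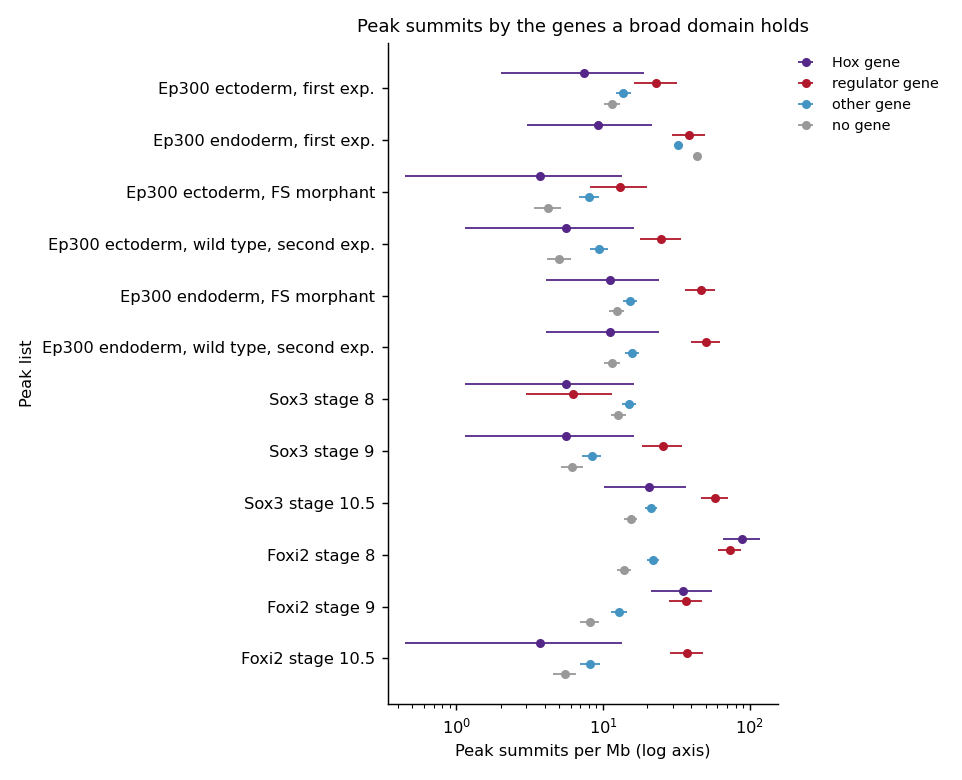
Summits per Mb (log axis) in Hox, regulator, other-gene and no-gene domains for the 12 peak lists, with exact Poisson 95% intervals. Stage 8 Foxi2 was densest in Hox (89.0 per Mb) and regulator domains (73.1 per Mb), whereas stage 8 Sox3 was sparser there than in domains with other genes or none.

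Regulator domains had the early Foxi2 binding of the Hox domains and still held Foxi2 at stage 10.5. Foxi2 had 117 summits in them at stage 8 (73.1 per Mb), 59 at stage 9 and 60 at stage 10.5 (37.5 per Mb). In domains with no gene midpoint the densities were 13.9 per Mb at stage 8 and 5.48 per Mb at stage 10.5. The ratio of regulator to no-gene domains was therefore 5.25 (4.20 to 6.51) and 6.84 (4.93 to 9.40). Sox3 behaved otherwise at stage 8, with 10 summits in regulator domains (6.25 per Mb) and 278 in no-gene domains (12.7 per Mb, ratio 0.492, 0.233 to 0.918). At stage 9 Sox3 stood at 25.6 per Mb in regulator domains and 6.12 in no-gene domains (ratio 4.18, 2.87 to 5.98). By stage 10.5 it stood at 57.5 and 15.4 per Mb (ratio 3.73, 2.93 to 4.71). The stage 8 Sox3 list thus differed from both later lists, and whether it holds sites of another factor was not tested. Wild-type Ep300 of the second experiment was denser in regulator domains than in no-gene domains in ectoderm (24.99 and 5.03 per Mb, ratio 4.97, 3.37 to 7.20) and in endoderm (50.0 and 11.5 per Mb, ratio 4.34, 3.33 to 5.60). In the first experiment the ratio was 2.01 (1.38 to 2.84) in ectoderm and 0.882 (0.671 to 1.14) in endoderm. The summits of the first experiment recurred at unequal rates: in Hox and regulator domains 64 of 67 endoderm summits were found again in the second (95.5%), against 409 of 1656 (24.7%) in all other domains.

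H3K27ac was also present on these domains. Ectoderm H3K27ac regions touched 686 domains (58.3%, 55.5 to 61.1), against 19.9% of all ectoderm H3K27me3 regions, and endoderm regions touched 666 (56.6%, 53.8 to 59.4), against 16.8%. Most of all regions are far narrower than the domains. Of the 895 broad ectoderm regions with no broad endoderm counterpart, 54.1% were touched in ectoderm and 47.9% in endoderm. The domains differed from these by 4.26 points (−0.054 to 8.56) in ectoderm and 8.70 (4.36 to 13.0) in endoderm. Ectoderm H3K27ac covered 22.1% of domain bases, 16.9% of other H3K27me3 bases and 10.6% of unmarked bases. Endoderm H3K27ac covered 16.9%, 14.95% and 8.65%. In the broad regions with no counterpart it was 19.7% of bases in ectoderm and 11.4% in endoderm. H3K27ac peaks were stitched too, so covered bases include the gaps between joined peaks. Here and below, bases called acetylated are bases inside stitched regions, which need not lie under a peak. Regions above the super-enhancer cutoff made up a large share, covering 13.7% of domain bases in ectoderm and 8.34% in endoderm. Over all such regions the median width was 60284.5 bp in ectoderm and 61825 bp in endoderm, from medians of 16 and 18 stitched peaks. H3K27ac of both tissues touched 556 domains (47.3%), and 380 (32.3%) were touched in neither. The matching shares of all H3K27me3 regions were not computed. Since these were bulk tissues, overlapping marks on the same cells cannot be told apart from marks on different cells of the same tissue.

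**Figure D4:**
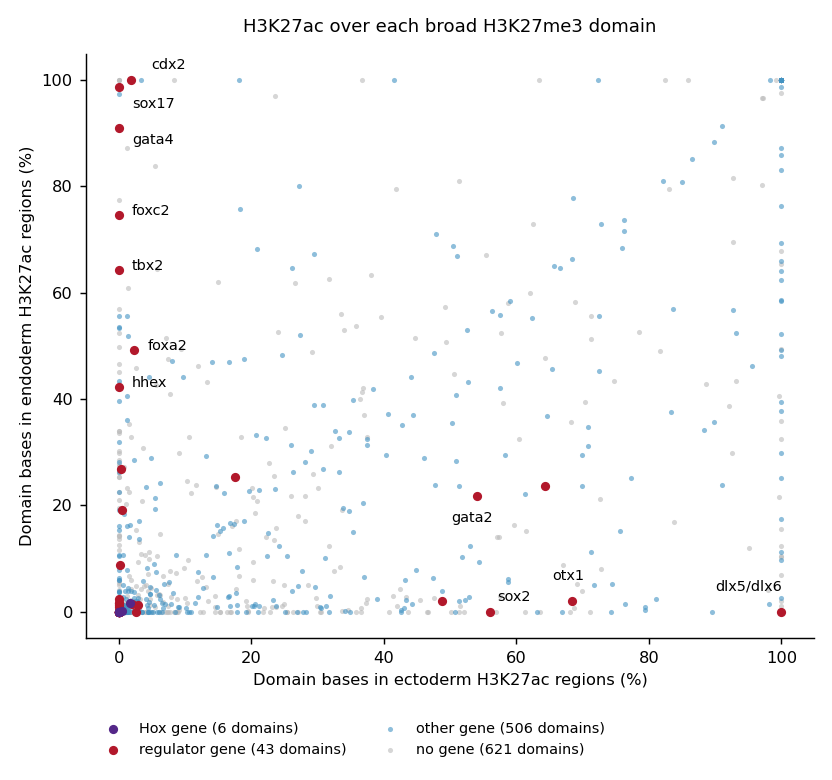
Percent of bases of each domain in H3K27ac regions, ectoderm on the horizontal and endoderm on the vertical axis, coloured by the genes the domain holds. Hox domains lie at or near the origin, those of *dlx5*/*dlx6* and *sox2* along the ectoderm axis and those of *sox17*, *gata4*, *foxc2* and *tbx2* along the endoderm axis.

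Regulator domains were acetylated in ectoderm less often than others. Ectoderm H3K27ac touched 15 of 43 (34.9%), against 669 of 1127 domains with other genes or none (59.4%), a difference of −24.5 points (−37.3 to −9.26). In endoderm 22 of 43 (51.2%) were touched, against 642 of 1127 (57.0%), a difference of −5.80 (−20.5 to 8.71). Most acetylated domains were touched in both tissues, and in 99 at least 50% of the bases were acetylated in each. Acetylation of that extent in only ectoderm or only endoderm was rarer among the domains. At least 50% of the bases were acetylated in ectoderm and 0% in endoderm in 18 domains (1.53%), and the reverse held in 15 (1.28%). How often other H3K27me3 regions have these patterns was not computed, so the counts describe the domains alone. The 18 ectoderm-acetylated domains held 11 ectoderm and 10 endoderm Ep300 summits in the first experiment, and 12 and 5 in the second wild-type lists. In the 15 endoderm-acetylated domains there were 3 ectoderm and 27 endoderm summits in the first experiment, and 2 and 32 in the second.

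The 4 endoderm genes of the study's list that lay in domains were unequal in acetylation: *gata4* and *hhex* had endoderm H3K27ac over a large share of their domains, whereas *gsc* and *otx2* had 1.19% and 0.917% of bases covered. Several other domains of endodermal regulators were acetylated in endoderm. The *sox17a*, *sox17b.1* and *sox17b.2* cluster encodes factors that specify endoderm. Its domain (chr6:115150207-115183530) had 0% of bases inside stitched ectoderm H3K27ac regions and 98.7% inside endoderm ones. Ep300 had 1 ectoderm and 8 endoderm summits there in the first experiment, and 1 and 7 in wild type of the second. *gata4*, a factor of endoderm and heart (chr5:150629771-150654255), stood at 0% in ectoderm and 91.0% in endoderm, with 2 ectoderm and 5 endoderm Ep300 summits in the first experiment. By the rule of choice every member overlaps H3K27me3 regions of both tissues, and the endoderm region covered 100% of the *gata4* domain. The strength of the mark in the 2 tissues was not compared. For *cdx2*, a factor of the posterior gut and body axis, the shares were 1.88% in ectoderm and 100% in endoderm. *hhex*, a factor of anterior endoderm, had 0% and 42.3%, and *foxa2*, of endoderm and midline, 2.33% and 49.2%. *gsc*, an organizer factor, had 0% and 1.19% of bases acetylated, and 0 ectoderm and 3 endoderm Ep300 summits in both experiments. The *nkx2-3* domain had 0% of bases acetylated in either tissue. It held 1 ectoderm and 2 endoderm Ep300 summits in the first experiment, and 0 and 4 in wild type of the second.

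Domains of genes best known from mesoderm or limb were mixed. *hand2*, *tbx1*, *foxf1* and *foxf2* had 0% of bases acetylated in either tissue, and *tbx15* had 2.01% in ectoderm and 1.43% in endoderm. *foxc2* had 0% of bases acetylated in ectoderm and 74.6% in endoderm, and *tbx2* 0% and 64.3%. *tbx3* held 0 ectoderm and 6 endoderm Ep300 summits in the first experiment, and 1 and 7 in the second, with 17.6% and 25.3% of bases acetylated. *osr1* and *osr2*, zinc-finger factors of kidney and gut mesoderm, and *uncx*, a homeobox factor of the somites, were noticed after their values were seen. Their domains had 64.4%, 97.5% and 55.5% of bases acetylated in endoderm, and 0% in ectoderm.

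Domains of ectodermal and neural regulators were mixed as well. That of *zic2* and *zic5* (factors of the neural plate) had 0.569% of bases acetylated in ectoderm and 19.1% in endoderm, and that of *prdm8* 0.151% and 8.84%. *dlx5* and *dlx6* are homeobox factors of the neural plate border and placodes. Their domain (chr6:33897826-33929482) had 100% of bases inside stitched ectoderm H3K27ac regions and 0% inside endoderm ones. Foxi2 held 6, 5 and 6 summits there at stages 8, 9 and 10.5, and Sox3 0, 2 and 6. The *sox2* domain had 56.1% of its bases acetylated in ectoderm and 0% in endoderm, with 1 ectoderm Ep300 summit in the first and 3 in the second experiment and none in endoderm. *otx1* stood at 68.4% and 1.98%, *irx2* at 48.8% and 2.04%, *irx3* at 64.3% and 23.7%, and *gata2*, a factor of ventral ectoderm and blood, at 54.1% and 21.8%. *pax3*, a factor of the neural plate border, was bound without being acetylated. It had 5 ectoderm and 3 endoderm Ep300 summits in the first experiment, 6 and 3 in the second, 12 Sox3 summits at stage 10.5, and 0% H3K27ac in either tissue. *otx2*, *foxd3*, *foxb1*, *pax6* and *pou3f2* likewise had Ep300 in ectoderm in both experiments and at most 2.49% of bases acetylated in either tissue. The domains of *irx4*, *prdm13* and *tbx15* held no summit of any of the 12 lists. Of the 49 Hox and regulator domains, 22 touched no H3K27ac in either tissue, against 380 (32.3%) of all domains on chromosomes.

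**Figure D5:**
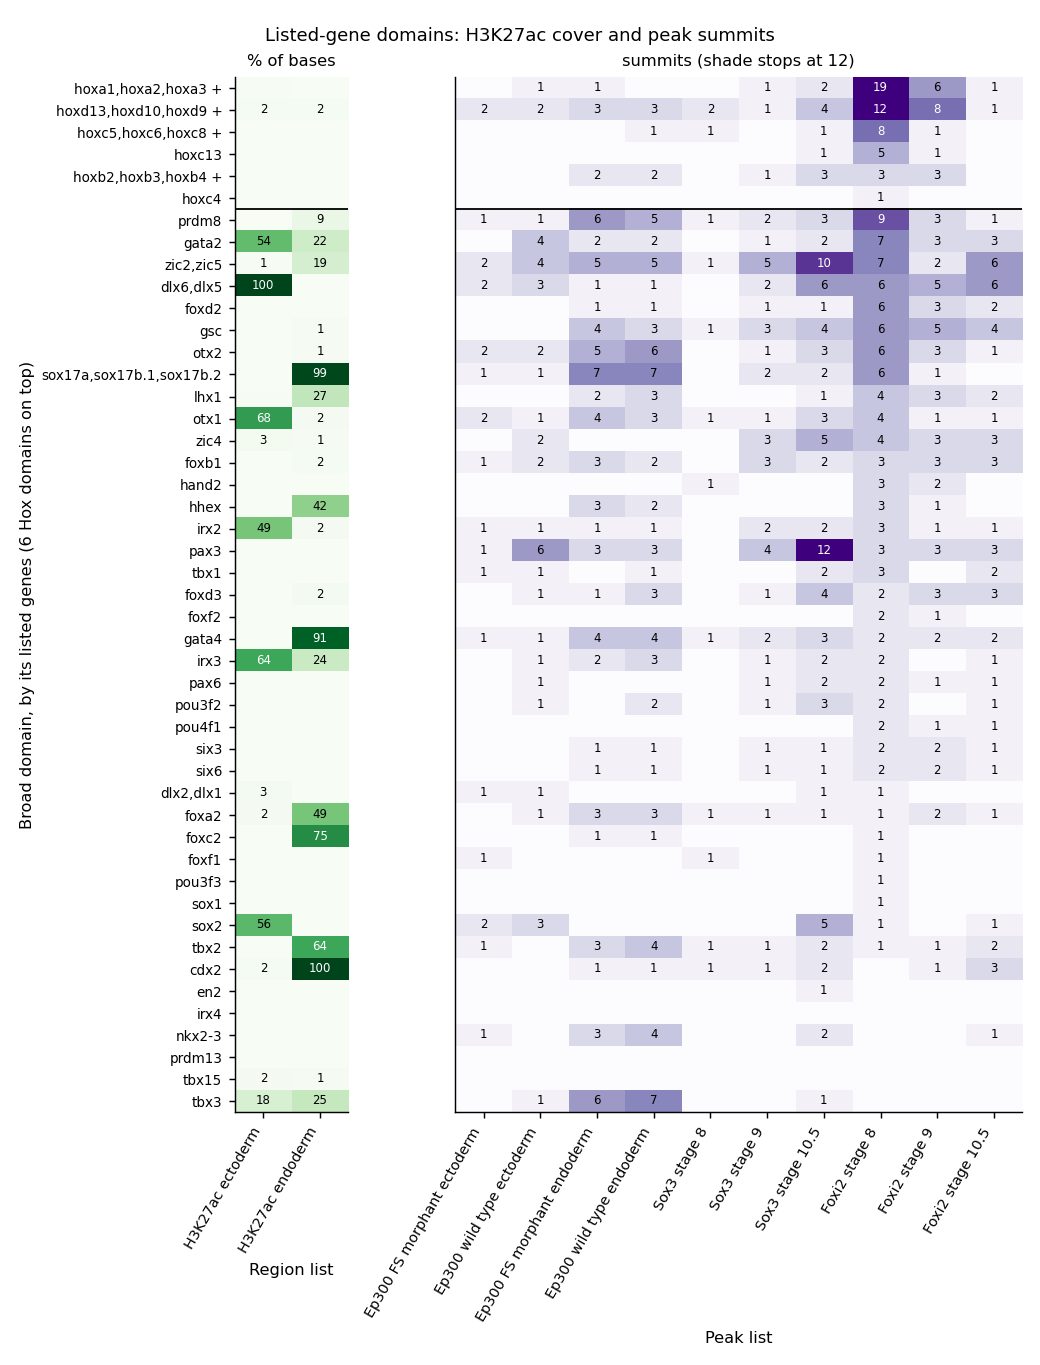
Most of the 49 Hox and regulator domains, with the percent of bases in H3K27ac regions (green) and the number of summits per list (purple); blanks are below 0.5% or 0 summits, and Ep300 is that of the second experiment. The *hoxa* domain held the most stage 8 Foxi2 summits (19), and stage 8 Foxi2 was present in 42 of all 49 domains. Over all broad domains on chromosomes that share was 36.5%.

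Among signalling genes, *shh*, the hedgehog ligand of the midline, had 0 ectoderm and 2 endoderm Ep300 summits in both experiments and no acetylation. *gdf6*, a BMP-family ligand, had 37.1% of its domain acetylated in ectoderm and 6.56% in endoderm. *fgf20*, an FGF ligand, had 0% and 10.5%, with 1 ectoderm and 4 endoderm summits in the first experiment and 0 and 4 in the second. The domains of *ephb4*, an ephrin receptor, and *gdf2*, another BMP-family ligand, were acetylated over 92.8% and 71.3% in ectoderm and 56.7% and 11.2% in endoderm. *fgf11*, an intracellular FGF-family member, lay in a domain with no summit and no H3K27ac.

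Depletion of Foxi2 and Sox3 was asked about next, by following wild-type Ep300 peaks of the second experiment into the FS morphant lists. Morphant ectoderm had 286 summits in 187 domains (15.9%, background 2.75%) and wild-type ectoderm 354 in 216, from lists of 3593 and 5552 peaks. In morphant endoderm there were 677 summits in 375 domains (31.9%, background 6.89%) and in wild-type endoderm 672 in 376. Of wild-type ectoderm peaks in domains, 52.8% (47.6 to 58.0) overlapped a morphant peak, against 43.5% (42.2 to 44.9) outside domains, a difference of 9.28 points (3.91 to 14.6). Within 10 bins of wild-type peak strength the difference was 7.66 (2.75 to 12.4). In endoderm 86.8% of peaks in domains were kept, against 83.3% outside (difference 3.44, 0.581 to 5.90), and within bins of strength the difference was 0.374 (−2.26 to 2.33). Ectoderm Ep300 in broad domains was thus retained somewhat more often than outside them, where other H3K27me3 regions and unmarked genome were pooled. In other H3K27me3 regions wild type had 1101 ectoderm summits and morphants 963, and in unmarked genome 4094 and 2340. Broad ectoderm regions with no broad endoderm counterpart had 232 and 194. The share kept was not computed for these parts, so whether the gap is particular to broad domains was not tested.

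In regulator domains the share kept had a wide interval. There 16 of 40 wild-type ectoderm peaks were kept (40.0%, 26.3 to 55.4), against 169 of 311 (54.3%) in domains with other genes or none, a difference of −14.3 points whose interval included 0 (−29.0 to 2.03). Of the 49 Hox and regulator domains, 15 had fewer ectoderm summits in morphants than in wild type and 4 had more, and over all domains 119 had fewer and 73 more. The 4 with more were those of *otx1* (2 morphant and 1 wild-type summits) and of *tbx2*, *foxf1* and *nkx2-3* (1 and 0 each). Among those with fewer, *pax3* had 1 morphant and 6 wild-type ectoderm summits. *gata2* had 0 and 4, *zic2* with *zic5* 2 and 4, *zic4* 0 and 2, *dlx5* with *dlx6* 2 and 3, and *sox2* 2 and 3. Among domains with endoderm Ep300, *sox17* had 7 morphant and 7 wild-type endoderm summits, *gata4* 4 and 4, *tbx3* 6 and 7, and *otx2* 5 and 6. In endoderm 71 of 80 peaks of regulator domains were kept (88.8%), against 507 of 586 (86.5%) in domains with other genes or none.

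The domains without listed genes were the most numerous and the most mixed. Those with no gene midpoint covered 21.9 Mb, with 17.3% of bases acetylated in ectoderm and 13.8% in endoderm, and those with other genes 21.3 Mb, with 28.6% and 20.8%. Uncharacterised genes, those with LOC or MGC symbols, made up 47.4% of the genes in domains and 27.7% of genes elsewhere. Of 156 zinc-finger genes named znf or zfp, a group chosen after the data were seen, 16 lay in 10 domains (10.3%). The next 3 domains were also singled out after their values were seen. A zinc-finger cluster at chr6:2832540-2937373, which holds *znf3*, *znf665*, *znf470* and *znf33b*, had 15 Foxi2 and 14 Sox3 summits at stage 8. It was acetylated over 50.9% in ectoderm and 28.4% in endoderm. The neighbouring domain chr6:2962333-3235360, 273028 bp wide and stitched from 49 peaks, had 23 Foxi2 and 16 Sox3 summits at stage 8. Its Foxi2 count was 23 at stage 9 and 3 at stage 10.5. *znf44* lay in a domain (chr6:5668790-5758927) acetylated over 100% in ectoderm and 83.1% in endoderm, with 8 morphant and 9 wild-type ectoderm Ep300 summits. *hes5.8* and *hes5.9*, Notch-responsive repressors singled out after their values were seen, shared a domain of 21614 bp with 18.1% of bases acetylated in ectoderm and 100% in endoderm. That domain held 5 ectoderm and 9 endoderm Ep300 summits in the first experiment and 5 and 8 in the second.

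The strongest single sites were taken from the first-experiment Ep300 lists and the stage 8 lists, and lay in such mixed domains. Peaks of the second Ep300 experiment were not named, although their median −log10 p in domains was higher. In wild-type ectoderm it was 66.1, against 13.4 in the first experiment, and in wild-type endoderm 82.7 against 15.5. The first-experiment ectoderm Ep300 peak with the highest −log10 p in a domain (131, fold enrichment 7.65) lay at chr6:131312-131859. This is near the start of the chromosome, in a domain of uncharacterised genes. The strongest endoderm Ep300 peak of the first experiment lay in *htra2*, which encodes a mitochondrial protease, at chr1:338066-338706 (−log10 p 160, fold 10.0). Stage 8 Sox3 was strongest at chr1:164588875-164589902 (−log10 p 355, fold 86.5), in a domain with no gene midpoint, where *cmklr1*, a chemerin receptor gene, was nearest at 67507 bp. Ep300 peaks of all 6 lists overlapped this site. Stage 8 Foxi2 was strongest at chr8:93570914-93572739 (−log10 p 405, fold 47.5), in the domain of *LOC100498266*, which was acetylated over 100% in both tissues.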

How the data were processed

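Processed lists of 16 groups were analysed, 1 per group. The study's methods give alignment by Bowtie 2 on *X. tropicalis* v10.0. MACS2 called peaks against input DNA at a relaxed p-value, replicates, where a group had them, were combined by the irreproducible discovery rate, and ROSE stitched and ranked histone peaks. The submitters' processing notes name Bowtie2 2.2.7. For the 12 Foxi2, Sox3 and Ep300 lists the authors deposited fold enrichment (ratio) over input, the −log10 of the p-value and a score. The score, a scaled irreproducibility score in the second-experiment Ep300 lists, was not used. First-experiment Ep300 groups have 1 sample each, so a score of theirs cannot compare replicate samples. The H3K27me3 lists were made from pooled replicates. The authors deposited for them the rank, the cutoff call and, in the region name, the count of stitched peaks. The H3K27ac tables deposited by the authors hold a signal per region, which was not used, with rank and cutoff call. Their endoderm signal column is headed with the animal-pole library, so which library ranked the endoderm regions is not settled. Per the file headers, H3K27ac peaks within 12 kb were stitched.

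Members and gene lists were chosen with earlier results of these data known. A peak was inside a domain when its summit was. Other H3K27me3 regions are all bases marked in either tissue outside the domains, and unmarked genome is the rest of the 10 chromosomes, whose lengths were taken as the largest coordinate in the files. Shares carry Wilson intervals, density ratios exact conditional binomial intervals and differences Newcombe intervals, all at 95% (Python 3.11.15, SciPy 1.17.1, statsmodels 0.14.6). Overlap meant at least 1 bp. The density ratio intervals and the overlap functions were tested on simulated data, and the Wilson and Newcombe intervals were not. Genes came from the RefSeq table of UCB_Xtro_10.0 (protein-coding). It gives no strand, so the midpoint replaced the planned gene start. Named were the widest domains, those at the width limit, those with the most ectoderm Ep300 or H3K27ac, the strongest peak of each main list, and listed genes inside a domain. Columns without a mapped sample numbered 0. Some genes of the lists are counted in totals and not reported here by name. Alternatives covered the width limit, the overlap rule, list length, peak strength, the second Ep300 experiment and the gene rule.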

Additional observations from a re-analysis of the deposited data

Results flagged for a closer look

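The ratio of Ep300 density in broad domains to that in unmarked genome was lower in ectoderm than in endoderm in the first experiment (log2 difference −0.93, −1.08 to −0.78). It drew attention because the interval of the difference excluded 0. In the second experiment the difference was −0.12 (−0.32 to 0.07). The ratio for Sox3 was lower at stage 10.5 than at stage 8 (log2 difference −2.56, −2.73 to −2.39), and so was that for Foxi2 (−0.37, −0.55 to −0.18). Both intervals excluded 0, and the Sox3 value rests on the stage 8 list, 80.0% of whose summits lay in H3K27me3 regions. The difference between ectoderm and endoderm in how much more often Ep300 peaks were kept inside domains was 5.85 points, with an interval that included 0 (−0.07 to 11.9).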

How the results depend on the processing

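No paired analysis was possible because each group has 1 combined list, and for the same reason no replicate could be left out. The planned promoter sequence result was not run, since no genome was used. Against other H3K27me3 regions, the endoderm Ep300 ratio was 0.680 with the second experiment and 1.03 without the 20 widest domains. Ectoderm minus endoderm shares of domains with Ep300 were 2.13 points with lists of equal length and −1.87 with second-experiment lists of equal length. Within bins of peak strength, endoderm Ep300 kept in morphants differed by 0.374 points. The cause was not tested. A limit of 15 kb gave 1960 domains, of which H3K27ac touched 53.5% in ectoderm (21.7% of bases) and 52.2% in endoderm (16.7%), with 5.84% of genes inside. A limit of 30 kb gave 482 domains, 66.2% (23.8%) and 62.9% (18.4%), with 2.49% of all genes and 16.5% of transcription factors inside. Asking that regions share 50% of each gave 55.4% touched and 19.9% of bases in ectoderm, and 15.2% of bases in endoderm. Over bases marked in both tissues these were 55.4%, 21.9% and 17.3%. H3K27ac regions above the cutoff alone touched 16.4% in ectoderm (13.7% of bases) and 10.5% in endoderm (8.34%). With any base of a gene inside, 6.63% of genes counted. Without the 20 widest domains the bases were 21.6% and 17.0%, genes 4.04% and Hox genes 75%. Of 123 alternative values, 90 kept their direction and call or stayed within their interval. Shares of bases covered have no interval, so every alternative to them fell among the rest whatever its size. Cutting the stage 8 lists to equal length could not change the Sox3 values, since Sox3 has the shorter list. The tally is therefore no measure of stability. The steps without the 20 widest domains and with equal-length second-experiment lists were chosen after seeing the data.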
